A study of Mus musculus with 56 samples.

Results

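The difference in the response to pregnancy between memory and naive OVA:Kb-specific CD8 T cells was measured as 1 contrast of RNA-Seq counts, (S+P C5 minus Sensitized) minus (N+P C5 minus Naive). It took 29 of the 56 deposited libraries, which came from 4 groups and 16 numbered replicates, each taken as a mouse. A negative value means that a gene changed upward more, or downward less, in the naive than in the memory comparison. The first bracket is called the memory arm and the second the naive arm. The gap between memory and naive cells was read from the same 4 groups, before pregnancy as Sensitized minus Naive and post-partum as S+P C5 minus N+P C5. A gene was classed as converging where this gap was smaller post-partum than before, as diverging where it was larger, and as crossing where both gaps exceeded 0.9 on the log2 scale with opposite signs.

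All mice were C57BL/6 females. The 3 Naive mice were untreated, and the 4 Sensitized mice had rejected a skin graft from male 2W-OVA.BALB/c donors, which carry the model antigen 2W-OVA. N+P C5 came from 3 naive mice and S+P C5 from 6 sensitized mice that were then mated with 2W-OVA.BALB/c males and studied post-partum. Each library was made from 200 tetramer-binding CD8 T cells of the spleen and lymph nodes of a single mouse. C5 is the PD1+CD73+ subset, whereas the labels name no subset for Naive and Sensitized cells. The study states that each group was sorted into its most prevalent subsets, and whether these cells were gated is not clear. No PD1+CD73+ gate is named for them, so pregnancy and the gate cannot be told apart in either arm. *Pdcd1* (PD1) and *Nt5e* (CD73) define the gate and are no finding. Means of the post-partum PD1-negative subsets, N+P C1 and S+P C4, are given beside the main genes for that reason.

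Memory CD8 T cells differ from naive cells in adhesion molecules, chemokine receptors, granule proteins and the transcription factors that permit rapid effector function. Naive cells instead depend on genes of quiescence, lymph node homing and survival cytokine sensing. Chronic antigen can superimpose a program of inhibitory receptors and factors such as TOX and NFAT on either state. An interaction contrast asks whether such a program was added equally to naive and memory cells, or whether the starting state set the size of the change.

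The 29 libraries held 6636532 to 32625243 counts, with a median of 17388215, and 11150 to 18012 detected genes. The highest number of genes was in a library of Naive mouse 2. A library of Naive mouse 1 was identical to a library of S+P C4 mouse 1 and was left out of both, so that Naive mouse 1 rests on 1 library. S+P C5 mice 2 and 3 also rest on 1 library each. Outside the 29 libraries, S+P C4 mice 2 and 3 had 1 library each, with only 8002 and 7436 detected genes. Markers of CD8 T cells were well above the floor of 3 counts in all 16 mice, at summed levels of 6875 to 16423 CPM (counts scaled to a common library size). In bulk RNA, fewer cells of a type and less RNA per cell cannot be told apart. Nothing in the labels says which mice shared an experimental day, and no UMIs were used, so counting intervals cover counting error only.

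Of 19657 genes tested, 5 passed an adjusted p under 0.1 with an absolute log2 fold change above 0.9 (edgeR quasi-likelihood test, Benjamini-Hochberg adjustment), which is 0.0254% of all genes. They were *S100a6*, *Bhlhe40*, *Klrk1*, *Itgb1* and *Ttc39c*, and all 5 had a negative interaction and were converging. None had a positive interaction at these thresholds, although 610 genes did at an unadjusted p under 0.05. All 5 genes were low in Naive cells, higher in Sensitized cells, and higher in N+P C5 than in Naive cells in every mouse. DESeq2 on the same samples called 820 genes, 393 positive and 427 negative, with all 5 among them, and limma voom called 0 with 784 genes at an unadjusted p under 0.05. Leaving out each of the 16 mice in turn gave 1 to 6 calls. In 10 of these 16 fits only *S100a6* remained, those without Naive mouse 1, 2 or 3, N+P C5 mouse 1, Sensitized mouse 3 or 4, or S+P C5 mouse 3, 4, 5 or 6. The other 4 genes therefore lie close to the threshold, whereas *S100a6* passed in all 16.

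*S100a6* (chr3:90520140-90535843, plus strand, GRCm39) encodes a calcium-binding protein that is abundant in activated and memory T cells. It stood at 12.3, 10.8 and 9.71 CPM in the Naive mice and at 428, 129 and 200 CPM in the N+P C5 mice. Sensitized mice had 500, 865, 669 and 435 CPM, and S+P C5 mice had 358 to 1047 CPM with a median of 507 CPM. The naive arm groups did not overlap, whereas the memory arm groups covered the same range. *S100a6* rose by 4.53 ± 0.60 (log2, SE) in the naive arm, against -0.11 ± 0.41 in the memory arm, an interaction of -4.64 ± 0.69 (edgeR adjusted p = 0.00295). The gap between memory and naive cells was 5.82 before pregnancy and 1.18 post-partum on the log2 scale. In PD1-negative post-partum cells the mean was 51.1 ± 33.5 CPM (SD) in N+P C1 and 520 ± 218 CPM in S+P C4.

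*Bhlhe40* (chr6:108636626-108644502, plus strand, GRCm39), a transcription factor that sustains effector cytokine production, was almost undetected in Naive mice at 0.206, 0 and 0.189 CPM. N+P C5 mice had 379, 182 and 154 CPM, and Sensitized mice 166, 217, 296 and 73.0 CPM. S+P C5 mice had 66.0 to 409 CPM with a median of 307 CPM. Naive cells stood apart from the other 3 groups, which overlapped with each other. The gene rose by 10.81 ± 1.89 (log2) in the naive arm, against 0.54 ± 0.98 in the memory arm (interaction -10.28 ± 1.96, edgeR adjusted p = 0.0529). Over 29 alternative settings or sample sets this interaction ran from -10.75 to -4.18, so its size is uncertain. The gap was 10.47 before pregnancy and 0.19 post-partum. The mean was 19.7 ± 13.7 CPM (SD) in N+P C1 and 299 ± 291 CPM in S+P C4.

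*Klrk1* (chr6:129587286-129600827, minus strand, GRCm39) encodes NKG2D, an activating receptor of memory CD8 T cells and NK cells. Its level was 17.7, 16 and 14.8 CPM in Naive mice and 177, 37.3 and 35.1 CPM in N+P C5 mice. Sensitized mice had 915, 1044, 1312 and 1152 CPM and S+P C5 mice 349 to 597 CPM with a median of 517 CPM. None of the 4 pairs of groups overlapped, and the order was Naive, N+P C5, S+P C5, Sensitized. The arms had opposite signs, 2.36 ± 0.54 in the naive and -1.14 ± 0.40 in the memory arm on the log2 scale, and neither passed alone (edgeR adjusted p = 0.140 and 0.277). Their difference did, with an interaction of -3.50 ± 0.67 (edgeR adjusted p = 0.0529). The gap was 6.10 before and 2.6 post-partum, so *Klrk1* kept the largest post-partum gap of the 5 genes. PD1-negative post-partum cells had 29.1 ± 14.1 CPM (SD) in N+P C1 and 1061.1 ± 281 CPM in S+P C4, against a mean of 1105.9 CPM in Sensitized and 503 CPM in S+P C5 mice, so the lower memory level was seen in C5 and not in the PD1-negative mean. The S+P C4 mean includes mice 2 and 3, each with 1 library of few detected genes. N+P C5 mouse 1 was well above the other N+P C5 mice. Without it *Klrk1* did not pass, nor did any gene but *S100a6*.

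*Itgb1* (chr8:129411876-129460618, plus strand, GRCm39), the integrin β1 chain, pairs with α4 and other chains for adhesion and tissue entry. Naive mice had 38.5, 56.9 and 39.0 CPM, N+P C5 mice 1265, 631 and 1350 CPM, and Sensitized mice 297, 363, 472 and 435 CPM. S+P C5 mice had 566 to 1113 CPM with a median of 919 CPM. The post-partum groups overlapped with each other and both lay above Sensitized cells in every mouse. *Itgb1* rose by 4.59 ± 0.58 in the naive arm, against 1.2 ± 0.41 in the memory arm (log2; interaction -3.40 ± 0.65, edgeR adjusted p = 0.0529). The gap of 3.13 before pregnancy was -0.27 post-partum. PD1-negative cells had 127 ± 31.0 CPM (SD) in N+P C1 and 719 ± 529 CPM in S+P C4.

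*Ttc39c* (chr18:12732953-12872466, plus strand, GRCm39), a gene of the tetratricopeptide repeat family, had no count in any of the 3 Naive mice. It was at 49.8, 3.19 and 15.9 CPM in N+P C5 mice, 25.2, 51.1, 61.6 and 38.6 CPM in Sensitized mice, and 20.6 to 62.3 CPM with a median of 51.4 CPM in S+P C5 mice. Against the floor of 3 counts per mouse it was higher in N+P C5 than in Naive cells by at least 204-fold, and in Sensitized cells by at least 393-fold. The memory arm was 0.03 ± 1.05 (log2) with overlapping groups. The fitted interaction of -12.53 ± 2.47 passed the test (edgeR adjusted p = 0.0806), but its size depends on the value given to absent reads. The mean was 6.52 ± 6.58 CPM (SD) in N+P C1 and 56.3 ± 56.3 CPM in S+P C4.

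**Figure D1:**
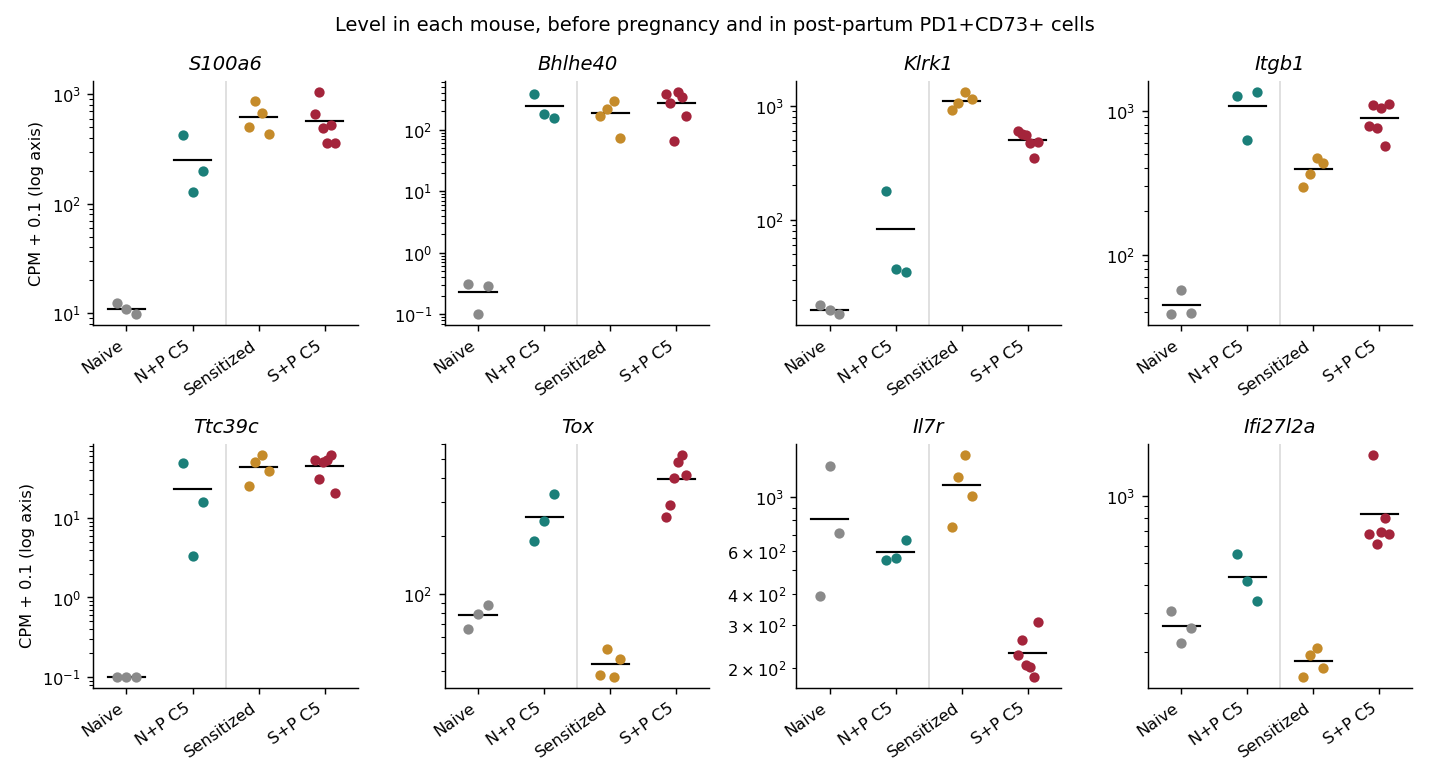
Level of 8 genes in each of the 16 mice. Points are mice, the y axis is CPM plus 0.1 on a log axis, horizontal lines are group means, and a vertical line separates the naive from the memory arm. In *S100a6*, *Bhlhe40* and *Ttc39c* the Naive mice lie far below the other 3 groups, whereas *Tox* is higher post-partum in both arms and *Il7r* is lowest in S+P C5.

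Promoter sequence was at hand for 3 of the 5 genes and is shown because all 3 passed the interaction test, although their memory arms differed in sign. Each covers 250 bases before to 50 after the annotated start (RefSeq, GRCm38.p6), at chr3:90612644-90612943 (plus strand) for *S100a6*, chr6:129623815-129624114 (minus strand) for *Klrk1* and chr8:128685404-128685703 (plus strand) for *Itgb1*. The sequences read 5′ to 3′, and capitals mark matches on either strand to AP-1 (TGANTCA), RUNX (TGTGGT), T-box (GGTGTG) or NFAT (GGAAAA) motifs, none of which contains another.
S100a6: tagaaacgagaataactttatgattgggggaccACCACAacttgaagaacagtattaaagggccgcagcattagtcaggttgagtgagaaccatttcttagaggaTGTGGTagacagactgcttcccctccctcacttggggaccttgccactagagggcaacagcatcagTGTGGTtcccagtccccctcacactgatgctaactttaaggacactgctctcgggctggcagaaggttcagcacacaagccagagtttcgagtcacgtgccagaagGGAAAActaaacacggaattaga
Klrk1: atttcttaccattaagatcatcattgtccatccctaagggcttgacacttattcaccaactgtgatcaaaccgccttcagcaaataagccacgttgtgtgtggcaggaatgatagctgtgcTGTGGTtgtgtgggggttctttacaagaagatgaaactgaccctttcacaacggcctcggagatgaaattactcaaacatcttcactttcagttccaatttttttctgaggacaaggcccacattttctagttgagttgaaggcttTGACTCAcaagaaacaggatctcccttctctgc
Itgb1: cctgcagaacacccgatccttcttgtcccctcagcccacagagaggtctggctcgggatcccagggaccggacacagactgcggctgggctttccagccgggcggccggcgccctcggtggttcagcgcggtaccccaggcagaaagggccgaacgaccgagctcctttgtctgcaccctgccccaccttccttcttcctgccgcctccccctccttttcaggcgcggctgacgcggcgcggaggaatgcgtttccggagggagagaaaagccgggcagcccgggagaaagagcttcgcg
The *S100a6* window held 3 RUNX matches and 1 NFAT match. *Klrk1* held 1 AP-1 and 1 RUNX match, and *Itgb1* none of the 4. Over all 32851 promoters of that length, 7.81% held the AP-1 letters, 16.8% the RUNX, 19.0% the T-box and 23.4% the NFAT letters. A match is a description of the letters and not a binding site.

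At an unadjusted p under 0.05 the contrast ranked 1262 genes, 6.42% of those tested, of which 610 were positive (3.1%) and 652 negative (3.32%). Most were rare transcripts. Of the positive genes 593, and of the negative genes 574, were at the floor of 3 counts per mouse in at least 1 group, and 961 of the 1262 were crossing, 225 converging and 76 diverging. These rare genes carry little weight, and the classes were therefore read among the 8239 genes with a mean of at least 10 CPM over the 16 mice. Of these, 97 had an unadjusted p under 0.05 (1.18%), 10 positive (0.121%) and 87 negative (1.06%). Among the 97 genes 82 were converging (84.5%), 8 crossing and 7 diverging, whereas 56.1% of all 8239 genes were converging. Of the 97 genes 20 were at the floor in Naive and 0 in N+P C5 mice. Without this minimum, 469 of the 610 positive genes were at the floor in N+P C5 and 504 in Sensitized mice. How far the minimum shaped the signs and classes was not tested. Among the 13751 genes above the floor in all 4 groups, a set chosen after seeing the data, 95 had an unadjusted p under 0.05, 17 positive and 78 negative, and 67.4% of them were converging, against 52.4% of all 13751. The classes and the contrast come from the same values, so these shares are a description without a test.

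Of the 82 converging genes, 77 were higher in Sensitized than in Naive cells before pregnancy. Their median gap was 5.10 before and 0.53 post-partum (log2). The naive arm was positive for 76 of the 77 with a median of 4.61, and the memory arm was positive for 44 with a median of 0.19. The memory arm was within 0.9 of 0 for 36 of them, above 0.9 for 26 and below -0.9 for 15. An unadjusted p under 0.05 was seen for 69 of the 77 in the naive arm (2.66% of genes with at least 10 CPM, 5.33% of all genes). In the memory arm it was seen for 17 (2.94% of genes with at least 10 CPM, 13% of all genes). The 77 genes were chosen by the difference between these arms and by their gaps. Their arm values and counts are thus in part set by the choice and carry no test. The 5 converging genes that were lower in Sensitized cells were *Hsp90aa1*, *Rpl31*, *Tpr*, *Ptcd1* and *Gm4956*, the last named after its values were seen.

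**Figure D2:**
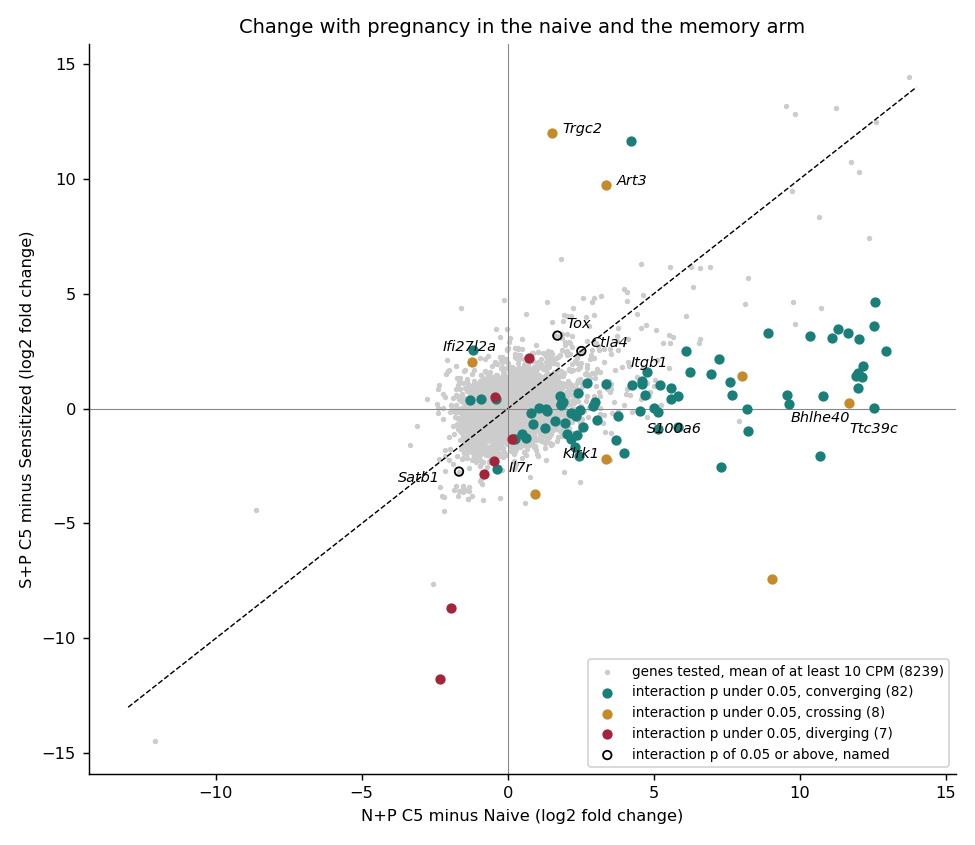
Change with pregnancy in the naive arm (x axis, N+P C5 minus Naive, log2 fold change) against the memory arm (y axis, S+P C5 minus Sensitized, log2 fold change) for 8239 genes. Coloured points are the 97 genes with an unadjusted interaction p under 0.05, split into 82 converging, 8 crossing and 7 diverging, open circles are 3 named genes without it, and the dashed line marks equal change. Of the 77 converging genes that were higher in Sensitized cells, 70 lie to the right of a naive arm of 0.9 and 36 within 0.9 of a memory arm of 0, and extreme values on either axis belong to genes with few or no counts in a group.

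A list of 38 genes that CD8 T cells acquire on becoming memory cells (integrins, S100 proteins, annexins, galectins, killer lectin-like receptors, chemokine receptors and effector factors) held 4 of the 5 called genes. All 38 were tested. The list was written with earlier results of these data known, and its members were chosen as genes of memory cells. A large gap before pregnancy is thus in part set by the choice, and the shares below are a description without a test. The interaction was negative in 35, with an unadjusted p under 0.05 in 24 (63.2%, against 6.42% of all genes and 1.18% of those with at least 10 CPM) and in no gene with a positive sign. The median interaction was -2.19, compared with -0.06 over all genes, the median naive arm 1.63 and the median memory arm -0.36. The median gap fell from 2.50 to 0.38, and 34 of the 38 were converging. Sensitized and Naive mice did not overlap in 33 of the 38 genes (7.59% of all genes), whereas S+P C5 and N+P C5 mice did not overlap in 5 (2.67% of all genes). Naive arm groups did not overlap in 28 (12.9% of all genes) and memory arm groups in 7 (2.88% of all genes).

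*Ahnak* and *Anxa2*, also of that list, were low in Naive mice like *S100a6*. *Ahnak*, a giant scaffold protein, was at 90.5, 104 and 125 CPM in Naive mice and 562, 311 and 379 CPM in N+P C5 mice, with 341, 485, 1029 and 622 CPM in Sensitized mice and 257 to 586 CPM (median 395) in S+P C5 mice. *Anxa2*, a phospholipid-binding annexin, was at 15.5, 27.9 and 7.41 CPM in Naive mice, 466, 92.0 and 130 CPM in N+P C5 mice, 290, 423, 358 and 210 CPM in Sensitized mice and 90.0 to 407 CPM (median 262) in S+P C5 mice. For both genes the Naive mice stood below all others and the remaining groups overlapped. Interactions were -2.58 ± 0.56 for *Ahnak* and -4.09 ± 0.94 for *Anxa2*, which did not pass (edgeR adjusted p = 0.170 and 0.298). The gap between memory and naive cells in *Ahnak* was 2.54 before (edgeR adjusted p = 0.00547) and -0.04 post-partum.

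Some receptor, granule and chemokine genes kept a memory to naive gap post-partum, although none passed the test there. *Klrc1*, which encodes the NKG2A receptor, was at 1.19, 3.71 and 0.113 CPM in Naive mice and 236, 22.2 and 27.3 CPM in N+P C5 mice. Sensitized mice had 441, 522, 861 and 590 CPM and S+P C5 mice 256 to 438 CPM (median 352), so N+P C5 remained below S+P C5 in every mouse. Its interaction was -6.63 ± 1.55 (edgeR adjusted p = 0.317).
*Gzmk*, a granzyme of memory cells, was at 0.0823, 0 and 0.151 CPM in Naive mice, 15, 19.7 and 11.9 CPM in N+P C5 mice, 125, 217, 94.8 and 96.2 CPM in Sensitized mice and 134 to 538 CPM (median 231) in S+P C5 mice. It rose in the naive arm by 7.6 ± 1.5 (edgeR adjusted p = 0.0541), and its gap was 4.25 post-partum, against 10.70 before. Its interaction was -6.46 ± 1.59 (edgeR adjusted p = 0.400), and -1.08 where the library shared with S+P C4 was kept in Naive mouse 1. *Ccl5*, a chemokine stored by memory CD8 T cells, had 234, 120 and 126 CPM in Naive mice, 1073, 340 and 522 CPM in N+P C5 mice, 6616, 10751, 7456 and 5266 CPM in Sensitized mice and 1064 to 7481 CPM (median 2894) in S+P C5 mice. Its interaction was -3.11 ± 0.86 (edgeR adjusted p = 0.649).

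Of 20 effector and cytotoxic genes, all tested, 5 had a negative interaction with an unadjusted p under 0.05 (25.0%, against 3.32% of all genes and 1.06% of those with at least 10 CPM; *Gzmk*, *Fasl*, *Ccl5*, *Ifng* and *Nkg7*) and none a positive one, with a median of -0.75. *Ifng*, the cytokine interferon-γ, was at 5.19, 4.90 and 0.0756 CPM in Naive mice and 155, 48.1 and 60.8 CPM in N+P C5 mice. Sensitized mice had 129, 65.9, 158 and 34.0 CPM and S+P C5 mice 27.4 to 227 CPM (median 161). Its interaction was -4.12 ± 1.26 (edgeR adjusted p = 0.649), with a naive arm of 4.70 and a memory arm of 0.58. *Fasl*, the death ligand, had 4.82, 0.0331 and 5.29 CPM in Naive mice, 107, 36.4 and 16.3 CPM in N+P C5 mice, 219, 323, 293 and 106 CPM in Sensitized mice and 3.36 to 140 CPM (median 41.8) in S+P C5 mice, and its arms were 3.98 and -1.91 on the log2 scale. Exons of *Ifng* overlap the same-strand gene *Gm49751*, so reads there could not be told apart.

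*Id2*, *Zeb2* and *Tbx21*, factors of effector differentiation, were the members of a list of 31 exhaustion-associated factors with an unadjusted p under 0.05. That list as a whole had 18 positive and 13 negative interactions. *Id2* was at 189, 222 and 232 CPM in Naive mice and 515, 467 and 565 CPM in N+P C5 mice, against 800, 1852, 1027 and 1035 CPM in Sensitized mice and 417 to 1041 CPM (median 603) in S+P C5 mice. *Zeb2* was at 0.123, 0.166 and 0 CPM in Naive mice, 42.7, 36.4 and 12.6 CPM in N+P C5 mice, 133, 49.8, 185 and 120 CPM in Sensitized mice and 22.6 to 134 CPM (median 49.9) in S+P C5 mice. *Tbx21*, which encodes T-bet, had 10.7, 8.48 and 8.88 CPM in Naive mice, 72.8, 32.5 and 63.3 CPM in N+P C5 mice, 180, 90.8, 144 and 140 CPM in Sensitized mice and 27.2 to 140 CPM (median 86.2) in S+P C5 mice. All 3 lay between Naive and Sensitized levels in N+P C5 mice. Their interactions were -2.12 ± 0.50, -9.23 ± 2.21 and -3.37 ± 1.49 (edgeR adjusted p = 0.317, 0.349 and 0.697). That of *Zeb2* ran from -9.88 to -4.64 over 29 alternatives. *Id2* and *Zeb2* overlap genes on the other strand (*Gm36287* and *Zeb2os*), and whether the counting used strand is not given in the sources used here.

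*Endod1*, an endonuclease domain gene, and *Entpd1*, which encodes the ectoenzyme CD39, were also among the negative genes with the smallest p. *Endod1* rose in the naive arm, from 0, 0.199 and 0.0378 CPM to 83.1, 66.7 and 41.2 CPM (9.55 ± 1.81, edgeR adjusted p = 0.0382). It was at 24.5, 5.95, 51.4 and 28.2 CPM in Sensitized mice and 27.2 to 50.8 CPM (median 46.5) in S+P C5 mice. *Entpd1* rose in the naive arm too (edgeR adjusted p = 0.0801), from 0.0412, 0 and 0.0378 CPM to 15.4, 25.2 and 28.7 CPM, at least 206-fold. This naive arm call held in 15 of 29 alternatives. Sensitized mice had 44.2, 48.3, 40.9 and 0.805 CPM and S+P C5 mice 6.43 to 71.9 CPM (median 36.6). The interactions of -8.96 ± 1.90 and -9.41 ± 2.11 did not pass (edgeR adjusted p = 0.154 and 0.241). Over the 29 alternatives they ran from -10.94 to -4.39 for *Endod1* and from -9.83 to -8.01 for *Entpd1*.

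Before pregnancy, 30 genes passed in Sensitized against Naive cells, all higher in Sensitized cells (0.153% of genes). The post-partum gap of these genes was measured in other mice. In these mice 27 of the 30 kept the sign, 11 did so with an unadjusted p under 0.05 (2.15% of all genes in that direction), and none passed after adjustment. The share of all genes that kept the sign was not counted. No gene of the 19657 passed post-partum in edgeR, although 1155 (5.88%) had an unadjusted p under 0.05, 3.73% of all genes lower in S+P C5. Before pregnancy 7.82% of genes had an unadjusted p under 0.05, 3.84% higher in Sensitized cells. The median gap was 4.13 before and 0.80 post-partum, with a range of -0.62 to 4.25, and the gap was smaller post-partum in all 30. The genes were chosen for a large first gap, so that a smaller second value is in part set by the choice and carries no test. Their mean log2(CPM + 1) per mouse was 3.89 to 4.07 in Naive and 6.74 to 7.66 in N+P C5 mice. It was 7.72 to 8.41 in Sensitized and 7.64 to 8.46 in S+P C5 mice, so this mean covered the same range in memory cells before and after pregnancy. Single genes differed in either direction in the memory arm, such as *Itgb1* (1.2) and *Klrk1* (-1.14, edgeR adjusted p = 0.277 for both). The Naive and Sensitized levels are in part set by the choice of the genes.

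**Figure D3:**
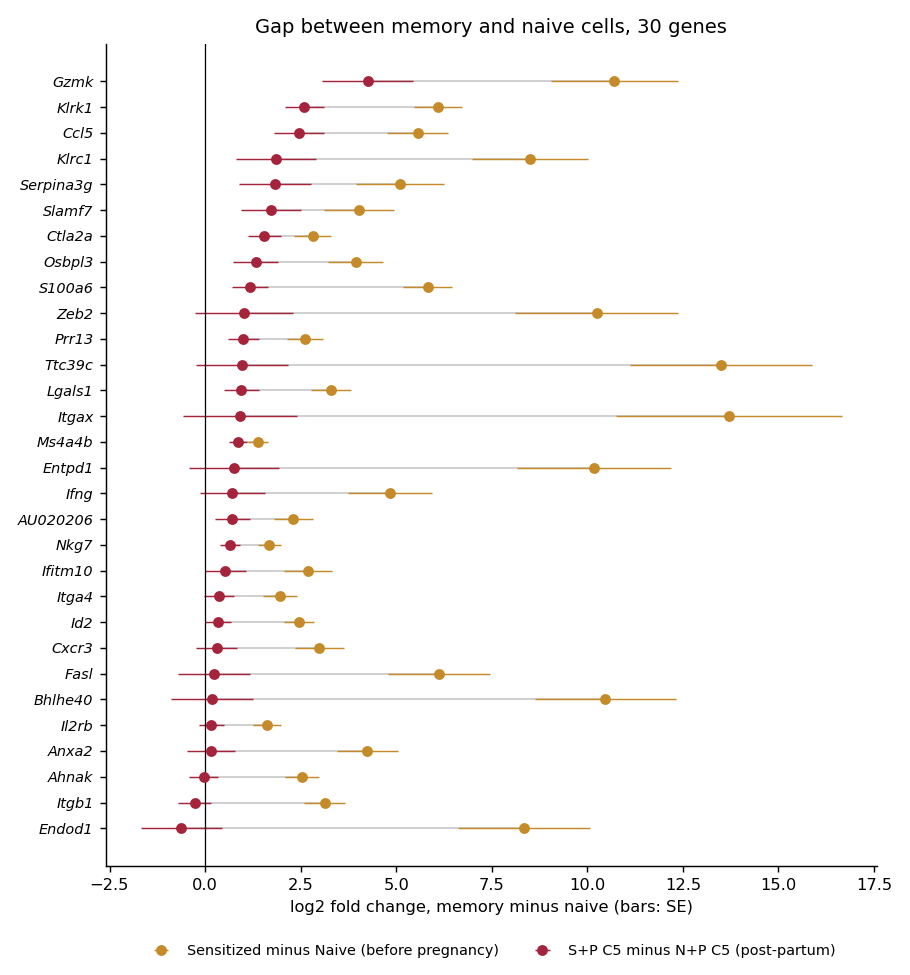
Gap between memory and naive cells in the 30 genes called in Sensitized against Naive cells. The x axis is the log2 fold change with bars of 1 SE, for Sensitized minus Naive and for S+P C5 minus N+P C5, and genes are ordered by the latter. Post-partum values run from -0.62 (*Endod1*) to 4.25 (*Gzmk*) and lie left of the earlier value in all 30 genes.

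The arms share no mice, so genes called in one arm could be examined in the other. The 8 genes called in the naive arm (0.0407% of genes), all higher in N+P C5, had a median of 8.58 there and of 0.56 in the memory arm, where 7 kept the sign and 2 had an unadjusted p under 0.05 (5.26% of all genes higher). Of the 14 genes called in the memory arm (0.0712% of genes), 6 were higher (0.0305%) and 8 lower (0.0407%). All 14 had the same sign in the naive arm. The share of all genes with equal signs in the arms was not counted, so neither the 8 nor the 14 genes can be set against it. In the naive arm 5 of the 14 had an unadjusted p under 0.05, against 5.33% of all genes (3.23% higher and 2.1% lower). Across the 8239 genes with at least 10 CPM the arms had a Pearson r of 0.47, and across all 19657 genes of 0.18, given as a description across genes that share libraries. All 8 and all 14 genes had the smaller change in the arm that did not choose them, which is in part set by the choice.

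*Ly6c2* and *Btg2* were converging with a lower level on the memory side. *Ly6c2*, a surface protein of memory CD8 T cells, was chosen after its values were seen. It was at 275, 304 and 387 CPM in Naive mice and 309, 272 and 173 CPM in N+P C5 mice, but at 3298, 2655, 2581 and 1869 CPM in Sensitized mice and 109 to 1116 CPM (median 331) in S+P C5 mice. The S+P C5 mice lay below all Sensitized mice. It fell in the memory arm by 2.62 on the log2 scale (SE 0.55, edgeR adjusted p = 0.0701), against -0.36 ± 0.70 in the naive arm, and the interaction of -2.27 ± 0.89 did not pass (edgeR adjusted p = 0.649). *Btg2*, an anti-proliferative gene of resting cells, was at 560, 378, 853 and 296 CPM in Sensitized mice and 90.6 to 252 CPM (median 236) in S+P C5 mice, with 198, 437 and 229 CPM in Naive and 464, 212 and 299 CPM in N+P C5 mice. Its memory arm of -1.34 ± 0.36 and its interaction of -1.51 ± 0.59 did not pass (edgeR adjusted p = 0.277 and 0.649).

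The 7 diverging genes among the 97 were *Il7r*, *Ifngr1*, *Bcl2*, *Ifi27l2a*, *Lat*, *Slc6a19* and *Gm43698*. *Il7r*, the receptor chain for the survival cytokine IL-7, was at 393, 1342 and 708 CPM in Naive mice and 551, 560 and 666 CPM in N+P C5 mice. Sensitized mice had 752, 1207, 1485 and 1009 CPM and S+P C5 mice 183 to 306 CPM (median 215), below the mice of the other 3 groups. It fell in the memory arm by 2.28 (SE 0.45, edgeR adjusted p = 0.0446), compared with -0.46 ± 0.57 in the naive arm, an interaction of -1.82 ± 0.73 (edgeR adjusted p = 0.649).

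*Ifngr1*, the interferon-γ receptor chain, and *Bcl2*, a survival protein downstream of IL-7, were named after their values were seen. *Ifngr1* was at 319, 374 and 268 CPM in Naive mice, 289, 147 and 104 CPM in N+P C5 mice, 617, 457, 854 and 435 CPM in Sensitized mice and 33.2 to 180 CPM (median 53.2) in S+P C5 mice. *Bcl2* was at 135, 309 and 211 CPM in Naive mice, 221, 244 and 267 CPM in N+P C5 mice, 220, 366, 242 and 294 CPM in Sensitized mice and 75.4 to 158 CPM (median 115) in S+P C5 mice. S+P C5 lay below Sensitized cells in every mouse for both. *Ifngr1* fell by 2.85 in the memory arm (SE 0.49, edgeR adjusted p = 0.0118), with -0.83 ± 0.61 in the naive arm, whereas the memory arm of *Bcl2* did not pass (-1.32 ± 0.41, edgeR adjusted p = 0.277). Interactions were -2.02 ± 0.78 and -1.48 ± 0.67 (edgeR adjusted p = 0.649 and 0.711).

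*Ifi27l2a*, an interferon-inducible gene, diverged upward. It was at 307, 220 and 256 CPM in Naive mice, 553, 418 and 338 CPM in N+P C5 mice, 155, 195, 208 and 170 CPM in Sensitized mice and 613 to 1530 CPM (median 687) in S+P C5 mice. None of the 4 pairs of groups overlapped. It rose by 2.19 ± 0.37 in the memory arm (edgeR adjusted p = 0.0118), with 0.74 ± 0.44 in the naive arm and an interaction of 1.45 ± 0.56 (edgeR adjusted p = 0.649). Its exons overlap *Ifi27* on the other strand. Of 62 interferon-stimulated genes tested, 1 had a positive (*Ifi27l2a*) and 1 a negative interaction (*Ly6a*) at an unadjusted p under 0.05, 3.23% against 6.42% of all genes and 1.18% of those with at least 10 CPM, which 57 of the 62 were.

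Positive interactions were few among well-expressed genes, and none passed in the edgeR fit of all 7 groups. The fit of only the 4 groups called 2 positive and 28 negative genes. Of 29 alternatives, *Tfdp1* passed in 2 and *Trgc2* in 3. *Tfdp1*, a partner of E2F in cell cycle entry, was at 77.6, 40.9 and 44.2 CPM in Naive mice, 31.9, 13.5 and 24.1 CPM in N+P C5 mice, 11.2, 4.05, 24.1 and 22.9 CPM in Sensitized mice and 46.9 to 90.7 CPM (median 58.8) in S+P C5 mice. The arms pointed in opposite directions, -1.23 ± 0.75 and 2.01 ± 0.63 (interaction 3.23 ± 0.98, edgeR adjusted p = 0.649). The chaperone *Hsp90aa1* was at 1317, 857 and 798 CPM in Naive and 602, 560 and 398 CPM in N+P C5 mice, with 502, 480, 608 and 464 CPM in Sensitized and 443 to 854 CPM (median 699) in S+P C5 mice, an interaction of 1.33 ± 0.47 (edgeR adjusted p = 0.649). *Lat*, the adaptor of the T cell receptor, and *Nktr*, a cyclophilin-related gene, had interactions of 0.92 ± 0.42 and 1.14 ± 0.56 (edgeR adjusted p = 0.713 and 0.778). Reads from related gene copies that map to several places were removed from the counts, which can lower *Hsp90aa1* and ribosomal protein genes.

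Among genes with at least 10 CPM, the positive interaction with the smallest p belonged to *Trgc2*, a constant region of the T cell receptor γ chain. It was at 3.95, 4.24 and 6.35 CPM in Naive mice and 35.5, 0.0292 and 5.62 CPM in N+P C5 mice, at the floor in Sensitized mice, and at 42.1 to 199 CPM (median 76.4) in S+P C5 mice. It rose in the memory arm, at least 1106-fold (edgeR adjusted p = 0.0225), while the interaction did not pass (edgeR adjusted p = 0.394). *Trdc*, the δ chain constant region that defines γδ T cells, was at the floor in all 6 S+P C5 mice. *Trgc2* has near-identical copies in the genome, so its counts are uncertain.

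The study's text names 9 genes as changed by pregnancy in both naive and memory cells, a choice made on these samples. Of the 9 genes 8 were higher and 1 lower at an unadjusted p under 0.05 in each arm, and 1 had an interaction at that level (*Pdcd1*, part of the gate). With *Il21* and *Il10*, which were added to that list here, 10 of 11 were higher in each arm. *Nfatc1* and *Nfat5*, transcription factors of the NFAT family, and the inhibitory receptor *Ctla4* had naive arms of 1.46, 2.12 and 2.52 and memory arms of 1.42, 2.38 and 2.51. Their interactions were -0.04 ± 0.54, 0.26 ± 0.88 and -0.01 ± 1.42. None of their arms passed the adjusted test in the edgeR fit of all 7 groups. Of 29 alternatives, the naive and memory arms of *Nfatc1* passed in 4 and 6. Those of *Nfat5* and of *Ctla4* each passed in 2 and 4. The standard errors leave room for differences of more than 2-fold in all 3 genes, so similar arms are not shown to be equal. *Tnfsf4*, which encodes OX40L, was at the floor in Naive and Sensitized mice, at 20, 31.4 and 20 CPM in N+P C5 mice and at 31.4 to 192 CPM in S+P C5 mice, a difference of at least 212-fold in the naive and at least 1098-fold in the memory arm. These lower bounds do not rank the arms. By a metric joining fold change and adjusted p, the study reports *Tnfsf4* as more upregulated in N+P C5. DESeq2 gave an interaction of -13.46 (DESeq2 adjusted p = 0.000385).

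*Tox*, a factor that drives exhaustion programs, was at 66.4, 79.1 and 88.0 CPM in Naive mice, 188, 240 and 329 CPM in N+P C5 mice, 38.2, 52.0, 37.3 and 46.4 CPM in Sensitized mice and 252 to 526 CPM (median 405) in S+P C5 mice. The groups of each arm did not overlap, nor did Sensitized and Naive cells, whereas the post-partum groups did. *Tox* rose by 3.18 ± 0.53 in the memory arm (edgeR adjusted p = 0.0118), with 1.70 ± 0.60 in the naive arm (edgeR adjusted p = 0.765) and an interaction of 1.48 ± 0.75 (unadjusted p = 0.0565, edgeR adjusted p = 0.810). PD1-negative cells had 76.0 ± 16.8 CPM (SD) in N+P C1 and 135 ± 82.8 CPM in S+P C4. *Gm11802* overlaps its exons on the other strand.

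*Satb1*, a chromatin organizer of naive cells, was at 482, 695 and 683 CPM in Naive mice, 145, 266 and 173 CPM in N+P C5 mice, 165, 287, 103 and 149 CPM in Sensitized mice and 11.8 to 41.3 CPM (median 26.0) in S+P C5 mice. None of the 4 pairs of groups overlapped. It fell by 2.74 in the memory arm (SE 0.52, edgeR adjusted p = 0.0339), with -1.67 ± 0.67 in the naive arm and an interaction of -1.07 ± 0.84 (edgeR adjusted p = 1). *Gm36931* and *Gm6934* overlap its exons. The inhibitory receptor *Lag3* had 1.23, 1.49 and 0.264 CPM in Naive mice, 311, 309 and 217 CPM in N+P C5 mice, 14.5, 0, 20.9 and 26.6 CPM in Sensitized mice and 42.3 to 703 CPM (median 406) in S+P C5 mice, with an interaction of -3.58 ± 1.98 (edgeR adjusted p = 0.897). *Tigit*, another inhibitory receptor, rose in the memory arm by 5.07 ± 1.10 (edgeR adjusted p = 0.0892), with 4.10 ± 1.24 in the naive arm and an interaction of 0.97 ± 1.40. The memory arm call held in 10 of 29 alternatives, with an adjusted p of up to 0.428.

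Other lists held no called gene beyond those named, and their shares with an unadjusted p under 0.05 are to be read against 6.42% of all genes and 1.18% of those with at least 10 CPM. Of 20 inhibitory receptors 2 had such a p (10%, *Entpd1* and *Pdcd1*), of 31 exhaustion-associated factors 3 (9.68%), and of 25 cytokine receptors 5 (20.0%, *Il13ra1*, *Il2rb*, *Il18rap*, *Ifngr1* and *Il7r*), all negative. The median interaction of the exhaustion-associated factors was 0.26. Of 32 naive and quiescence genes 2 did (*Btg2* and *Il7r*), and of 29 T cell receptor signalling genes 1 (*Lat*, positive), with a median of 0.08. None of 50 cell cycle genes did (median 0.76), and *Ccnb2* and *Rrm2* were at 38.7 and 128 CPM in Naive mouse 1, against at most 0.68 and 2.57 CPM in the other Naive mice. Of 16 anergy and adenosine genes 1 did (*Nrp1*), of 20 cytokines 3 (*Ifng*, *Tnfsf11* and *Csf1*), of 21 glycolysis genes 1 (*Slc16a3*), of 33 activation and AP-1 genes 3 (*Spry2*, *Atf3* and *Rgs16*), and of 22 Wnt, TGF-β and Id genes 2 (*Id2* and *Id1*). Of 27 genes that the study names in 1 arm 9 did, 2 positive and 7 negative, and that list was also chosen on these samples.

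**Figure D4:**
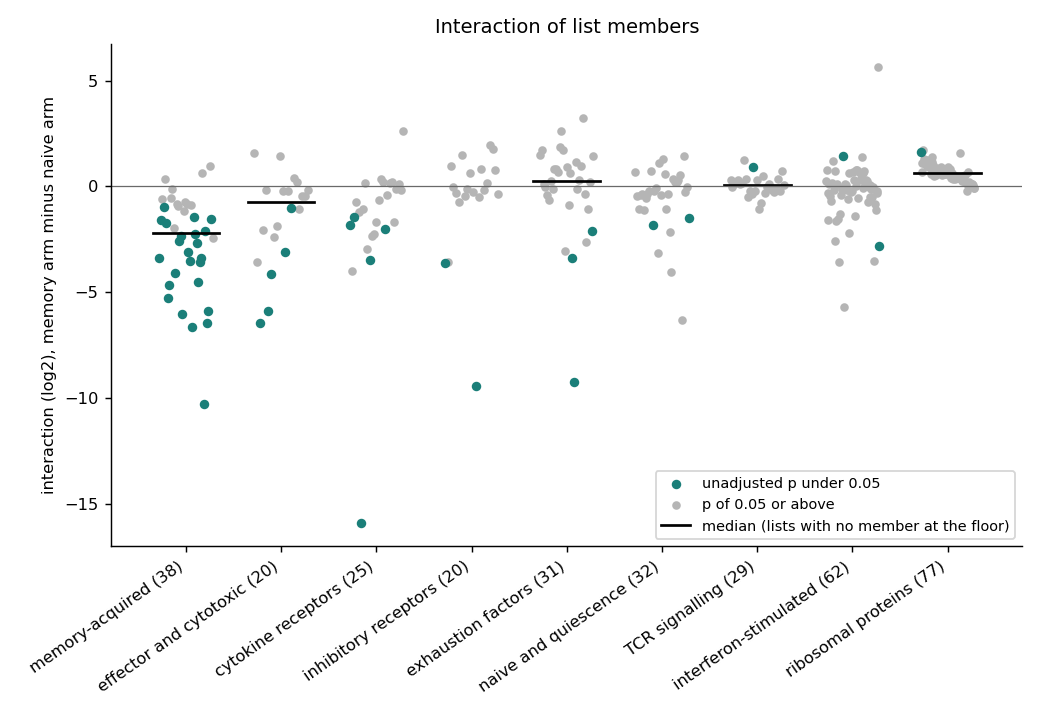
Interaction (y axis, log2, memory arm minus naive arm) of each tested member of 9 gene lists, with the number tested in brackets. Points are genes, coloured where the unadjusted p was under 0.05, and bars mark medians for lists with no member at the floor. Lists were chosen with earlier results of these data known. The memory-acquired list lies mostly below 0 with a median of -2.19, and the ribosomal protein genes lie mostly above 0 with a median of 0.61.

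Ribosomal protein genes, which build the translation machinery, moved the other way by small amounts. Of 77 tested, 74 had a positive interaction, with a median of 0.61 against -0.06 for all genes, but only *Rpl31* had an unadjusted p under 0.05 (1.30%, against 1.18% of genes with at least 10 CPM, which 75 of the 77 were) and none passed. The median was -0.77 in the naive arm, where 26 genes were lower at an unadjusted p under 0.05 (0.498% of genes with at least 10 CPM, 2.1% of all genes), and -0.16 in the memory arm, where 5 were (1.3% of genes with at least 10 CPM, 7.72% of all genes). Their summed level was 116992 to 138050 CPM in Naive, 61185 to 80580 CPM in N+P C5, 61812 to 98861 CPM in Sensitized and 45794 to 105743 CPM in S+P C5 mice. Thus Naive mice stood apart and the other 3 groups overlapped, and 69 of the 77 genes were converging. The sign of the median held under RLE and library size scaling (0.57 and 0.51), while the number at an unadjusted p under 0.05 reached 43 in the fit with a replicate block.

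Markers of other cell types moved with some of these genes. The summed level of the NK cell markers *Ncr1*, *Klrb1c* and *Klra8* was 0 to 0.0823 CPM in Naive, 2.42 to 9.42 CPM in N+P C5, 53.3 to 126 CPM in Sensitized and 0 to 62.2 CPM in S+P C5 mice, highest in Sensitized mice as for *Klrk1* and *Klrc1*. *Ncr1* was at the floor in all groups but Sensitized and *Klra8* in all 4. Myeloid markers reached 332 CPM in Sensitized mouse 1 and neutrophil markers 96.0 CPM in Sensitized mouse 4, with at most 41.1 and 2.48 CPM in the other 3 groups. Without Sensitized mouse 1 the contrast called 6 genes, including all 5 above, and without Sensitized mouse 4 only *S100a6*. Erythroid markers reached 120 CPM in N+P C5 mouse 2, and *Igha*, an immunoglobulin gene of plasma cells named after its values were seen, was at 517 and 451 CPM in Sensitized mice 1 and 2 and at 295 CPM in N+P C5 mouse 1. The study's methods list antibodies to NK1.1, CD11c, F4/80 and TER119, among others, and whether these gated out such cells in the sort is not given in the sources used here. The part of such transcripts in the results was not tested.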

How the data were processed

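SmartSeq2 and Nextera XT libraries of 200 sorted cells were sequenced together in 1 run. Reads were trimmed by the authors with cutadapt 3.4, aligned with STAR 2.6.1b (GRCm39), kept where uniquely mapping, and assigned to genes with featureCounts 2.0.1. The deposited values are raw counts for 55359 genes in 56 libraries.

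Here, counts were summed over the technical libraries of each sample, and S+P C7 mice 1 and 2, whose libraries were nearly identical, entered as their average. Replicate numbers were taken as mice. The labels number 6 S+P replicates, whereas the study gives 3 to 5 per group. All 7 groups (30 samples) shared a robust quasi-likelihood fit in edgeR 4.0.16 with TMM scaling, after filterByExpr (minimum count 10) left 19657 genes. The N+P and S+P subsets with the same number come from the same mice, which this fit treats as independent, unlike the fit of only the 4 groups. Tests were two-sided with Benjamini-Hochberg adjustment. Each SE is the absolute log2 fold change divided by the square root of the F statistic of its edgeR test. It is approximate, above all for genes with few or no counts in a group. CPM used TMM-scaled library sizes. Totals of 6636532 to 32625243 counts per library set the precision, and a group with at most 3 counts in every mouse was at the floor.

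Named were all called genes, the 12 protein-coding genes of at least 10 CPM with the smallest unadjusted p in each direction, up to 3 members of each list, the genes the study names in both arms with *Il21* and *Il10*, and the gate genes. Genes outside this rule are said to be so. Members and lists were chosen with earlier results of these data known. Alternatives used DESeq2 1.42.0, limma 3.58.1 voom, other scalings, filters and sample sets, and fits without each mouse. Scripts (R 4.3.3, Python 3.11.15) were tested on simulated data. Gene positions are from GENCODE M39 and promoters from RefSeq.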

Additional observations from a re-analysis of the deposited data

Results flagged for a closer look

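The difference between the arms passed the interaction test itself for 5 genes, with log2 values of -4.64 for *S100a6*, -10.28 for *Bhlhe40*, -3.50 for *Klrk1*, -3.40 for *Itgb1* and -12.53 for *Ttc39c*.

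Single mice stood far from the rest of their group in 6 of 68 pairs of gene and group examined with Dixon's test, where chance gives about 1 in 20. *Entpd1* was at 0.805 CPM in Sensitized mouse 4, against 40.9 CPM or more in the others. *Ifi27l2a* was at 1530.3 CPM in S+P C5 mouse 2, which rests on 1 library, against at most 802 CPM. *Nktr* was at 76.8 CPM in Sensitized mouse 1, against 156 CPM or more. *Nfat5* was at 39.0 CPM in Sensitized mouse 3, against at most 25.6 CPM. It was at 332 CPM in S+P C5 mouse 3, which also rests on 1 library, against at most 140 CPM. *Art3* was at 0.182 CPM in Sensitized mouse 4, against at most 0.0303 CPM, values of a few counts.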

How the results depend on the processing

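All 5 called interactions kept their sign in all 29 alternatives. *S100a6* passed in 27 of them, not with limma voom or without the filter on low counts, *Bhlhe40* in 15, *Klrk1* in 14, and *Itgb1* and *Ttc39c* in 12 each. The count of 5 was 1 at an FDR of 0.05, 820 with DESeq2, 0 with limma voom, 2 without the filter, 9 with a filter at 10 CPM, 30 with only the 4 groups fitted (no mouse used more than once), 165 with technical libraries as separate samples, 1 with the identical library kept in Naive mouse 1, 1 without the robust option, and 1 to 6 without each mouse. The cause of these changes was not tested. The 1262 genes at an unadjusted p under 0.05 were 97 when counting genes of at least 10 CPM, 95 when counting genes above the floor in all 4 groups (chosen after seeing the data), 784 with limma voom, 2047 without the filter and 110 with a filter at 10 CPM. The converging share of 17.8% was 84.5% among genes of at least 10 CPM, whether counted or filtered so, 67.4% among genes above the floor, 40.4% with DESeq2, 29.1% with limma voom, 12.1% without the filter, 42.0% with 4 groups, 37.2% with separate libraries, 22.5% with 1 library per sample, and 11% (without N+P C5 mouse 1) to 19.7% without each mouse. Of the members of the lists, 50 had an unadjusted p under 0.05, 85 with 4 groups and 88 with separate libraries. Library size scaling moved the median interaction of all genes from -0.06 to -0.18.

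Replicate numbers pair no mice, which differ between groups: deviations from group means had a mean r of 0.036 for 19 pairs with the same number (-0.017 to 0.108) and -0.008 for 74 pairs with different numbers. With the replicate number as a block, 11 genes were called, 4 of them among the 5, 736 had an unadjusted p under 0.05, 39.9% of these were converging, 107 list members had such a p, and *Ctla4* was at 0.13.

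Interactions near 0, or resting on few counts, changed sign. *Rgs16* was 1.59 with 1 library per sample, 0.98 with the identical library kept, and -8.45 to 0.55 without each mouse. *Tigit* was -0.25 with limma voom. *Tnfsf4*, at the floor in 2 groups, was -13.46 with DESeq2, where it passed (adjusted p = 0.000385), 1.57 with limma voom, 0.62 with separate libraries and 0.23 with 1 library, *Nfat5* -0.03, -0.09 and -0.42 in these fits. *Nfatc1* was 0.08 with the identical library and *Ctla4* 0.03 with the filter at 10 CPM. Without each mouse *Art3* was -2.23 to 8.46, *Ccnb2* -0.34 to 10.87, *Rrm2* -1.38 to 6.04, *Tnfsf4* -0.54 to 0.36, *Nfat5* -0.14 to 0.46, *Nfatc1* -0.20 to 0.10 and *Ctla4* -0.28 to 0.38.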
